A study of Mus musculus with 15 samples.

Results

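The interferon regulatory factors (IRFs) are a family of transcription factors that share an amino-terminal DNA-binding domain. The 8 genes described here, Irf1, Irf2, Irf3, Irf4, Irf5, Irf7, Irf8 and Irf9, were chosen by family membership, by name, from the 50554 genes in each of 15 count tables from dendritic cells grown in culture out of mouse bone marrow. Mysm1 encodes a deubiquitinase of histone H2A, and the study asked how loss of its catalytic activity alters dendritic cells at rest and after a microbial stimulus. All mice carried a tamoxifen-inducible CreERT2 transgene and received tamoxifen, which deletes a floxed Mysm1 allele, and their marrow was taken more than 12 weeks later. In the Δ/DN group the remaining allele encoded a catalytically inactive MYSM1, and in the Δ/+ control group it was wild type, so both groups carried 1 deleted allele. Marrow was grown with granulocyte-macrophage colony-stimulating factor (GM-CSF) for 9 days, then kept for 18 h with lipopolysaccharide (LPS), the Toll-like receptor 4 ligand, at 10 ng/mL, or left unstimulated (US). The 15 libraries comprised 4 of Δ/DN LPS, 4 of Δ/DN US, 3 of Δ/+ LPS and 4 of Δ/+ US, each an in vitro culture and not a sorted cell population. They came from 8 cultures, of which 7 gave both an LPS and a US library, and the labels do not say which cultures came from separate mice, so the p-values measure the spread between these cultures. The series text and the sample titles pair the letters A and C in the library names with opposite genotypes. The sample titles were followed here, and if the series text is right every difference between genotypes below has the opposite sign.

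As background, IRFs bind DNA elements built around the GAAA core, alone or with partner factors. IRF3, IRF5 and IRF7 are latent in the cytoplasm and are activated by phosphorylation downstream of Toll-like receptors and nucleic acid sensors, with IRF3 and IRF7 driving type I interferon genes and IRF5 driving inflammatory cytokine genes. Secreted interferon then acts through its receptor and JAK kinases to form ISGF3, the complex that holds IRF9, while IRF1 activates and IRF2 mostly opposes transcription at shared sites. IRF4 and IRF8 are lineage factors of dendritic cells that bind composite elements with PU.1 or BATF proteins; IRF8 is needed for the cDC1 subset and IRF4 for functions of the cDC2 subset.

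Promoter windows of the family are shown first because 6 of the 8 genes changed in the same direction after LPS. The windows are RefSeq sequences of build GRCm38.p6 and run from 250 bases before to 50 bases after an annotated start, and the 8 genes have 11 such windows. A search on both strands covered 4 motifs, namely the interferon-stimulated response element (ISRE) core GAAANNGAAA, the STAT-binding GAS element TTCNNNGAA, a kappa B core GGGNNTTTCC and an ETS-IRF composite element GGAANNGAAA. Only 3 of the 11 windows held a match, 1 each of Irf1, Irf2 and Irf8. Those 3 windows and that of Irf7, the gene with the largest change after LPS, are printed 5′ to 3′ on the gene's strand, with matches in capitals.
Irf1 (chr11:53769764-53770063, plus strand): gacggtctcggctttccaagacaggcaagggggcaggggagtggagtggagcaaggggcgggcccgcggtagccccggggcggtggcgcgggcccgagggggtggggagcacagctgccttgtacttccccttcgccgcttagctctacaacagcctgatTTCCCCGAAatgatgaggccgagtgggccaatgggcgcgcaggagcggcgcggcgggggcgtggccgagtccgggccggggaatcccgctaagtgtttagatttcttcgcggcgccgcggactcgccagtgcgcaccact
Irf2 (chr8:46739495-46739794, plus strand): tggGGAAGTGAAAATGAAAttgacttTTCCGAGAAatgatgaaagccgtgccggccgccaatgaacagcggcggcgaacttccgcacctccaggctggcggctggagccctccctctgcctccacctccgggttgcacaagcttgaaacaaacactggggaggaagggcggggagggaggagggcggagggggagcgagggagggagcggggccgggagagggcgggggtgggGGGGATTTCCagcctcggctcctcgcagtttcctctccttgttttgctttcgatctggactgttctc
Irf8 (chr8:120736108-120736407, plus strand): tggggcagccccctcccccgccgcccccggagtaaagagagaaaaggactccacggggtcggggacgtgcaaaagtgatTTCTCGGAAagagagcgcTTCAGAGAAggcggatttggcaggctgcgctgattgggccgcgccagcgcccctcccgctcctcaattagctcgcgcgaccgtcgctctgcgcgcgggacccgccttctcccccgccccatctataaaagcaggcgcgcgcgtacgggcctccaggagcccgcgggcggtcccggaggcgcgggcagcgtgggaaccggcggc
Irf7 (chr7:141266375-141266674, minus strand): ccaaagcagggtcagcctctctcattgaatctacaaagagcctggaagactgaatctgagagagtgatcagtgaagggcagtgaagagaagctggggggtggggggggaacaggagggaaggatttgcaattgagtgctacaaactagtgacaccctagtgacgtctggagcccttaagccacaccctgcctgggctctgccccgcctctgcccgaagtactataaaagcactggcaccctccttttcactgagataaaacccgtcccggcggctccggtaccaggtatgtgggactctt
The Irf1 window held 1 GAS match at -90 to -82 relative to the start. The Irf8 window held 2 GAS matches, at -171 to -163 and at -153 to -145. The Irf2 window held a match to each of the 4 motifs, an ETS-IRF composite at -247 to -238 that overlaps an ISRE core at -241 to -232, a GAS element at -224 to -216 and a kappa B core at -17 to -8. Among 32851 mouse promoter windows of the same length, 3.44% held the ISRE core, 8.3% the GAS element, 1.63% the kappa B core and 2.72% the composite element. A match is a description of the letters, and the Irf7 window printed held none of these 4 motifs. The search took only the exact letters given, so looser forms of a motif, those of the kappa B element among them, were not counted. A window without a match may still hold such a form.

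The libraries held 37256651 to 104041282 counted reads, and the reads counted on a member gene in a library numbered 796 to 58688, so counting error was small beside the spread between cultures. Levels below are CPM, counts relative to the library's total, adjusted by the trimmed mean of M values (TMM), which sets the bulk of genes equal between libraries. Differences are log2 values with their standard errors (SE) from edgeR's quasi-likelihood test with the library set as a term, and a gene was called at an adjusted p (Benjamini-Hochberg over the 20865 genes tested) under 0.05. All 8 members passed the filter on low counts. The library names place 10 libraries in a set 2 and 5 in a set 3, whose meaning is not given: set 3 holds cultures 3 and 4 of Δ/DN and the US library of culture 4 of Δ/+. Mysm1 itself had 35.2 ± 3.75 CPM in Δ/DN LPS, 41.2 ± 9.23 CPM in Δ/DN US, 43.2 ± 1.71 CPM in Δ/+ LPS and 50.4 ± 3.25 CPM in Δ/+ US libraries (SD, n = 4, 4, 3 and 4), which does not check the labels because the inactive allele is transcribed too. Library Δ/DN US 3 stood apart, with signal recognition particle RNA taking 10.4% of its reads against 1.605% to 5.657% in the others.

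The labelled cell type was checked against markers. The 10 conventional dendritic cell markers summed to 7933 to 12710 CPM in Δ/DN LPS, 5283 to 8023 CPM in Δ/DN US, 8524 to 10850 CPM in Δ/+ LPS and 5323 to 7049 CPM in Δ/+ US libraries. Cd74, the MHC class II invariant chain, averaged 3366 to 6586 CPM over the 4 groups, while Flt3, a receptor of steady-state dendritic cells, stayed at 0.754 to 2.66 CPM. The 10 macrophage markers summed to 2265 to 2886 CPM in Δ/DN LPS, 2432 to 2758 CPM in Δ/DN US, 1917 to 1984 CPM in Δ/+ LPS and 1997 to 2263 CPM in Δ/+ US libraries, and none was at 0, so the cultures held transcripts of both kinds. The 6 cDC1 markers summed to at most 30.9 CPM in any library. The 8 plasmacytoid markers reached 582 CPM, but mainly through Tcf4 and Bst2, and Siglech, which defines that cell type, stayed at or below 0.349 CPM. The 9 neutrophil markers summed to 929 CPM in Δ/DN LPS 4 and 798 CPM in Δ/DN US 4, both from culture 4, against 48.1 to 153 CPM in the other libraries. Markers of B and plasma cells summed to at most 7.93 CPM with Ighm at 0, those of mast cells and basophils to at most 54.8 CPM, and those of stromal and endothelial cells to at most 156.5 CPM, while T and NK cell markers reached 316 CPM, nearly all of it Il7r. In whole cultures, fewer cells of a type and less RNA per cell cannot be told apart.

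LPS changed 7 of the 8 IRF genes in each genotype, the same 7 in both: Irf1, Irf2, Irf4, Irf7, Irf8 and Irf9 rose, Irf3 fell, and Irf5 did not pass the test. Over all genes tested the call rate was 48.2% for LPS in Δ/DN (23.1% higher and 25.1% lower) and 47.7% for LPS in Δ/+ (22.4% higher and 25.3% lower). The median log2 change of the 8 genes was 1.03 in Δ/DN and 1.22 in Δ/+ cultures, against -0.09 and -0.08 over all genes. The libraries of the 2 treatments did not overlap for 6 of 8 members in Δ/DN and for 7 of 8 in Δ/+, beside 40.9% and 52.1% of all genes. These directions are relative to the bulk of genes. With library totals as the only scaling, an alternative added after the data were seen, the median gene fell by 0.67 in Δ/DN and by 0.73 in Δ/+ on the log2 scale, and the share of higher genes among those called was 17.4% in Δ/DN and 17.1% in Δ/+, against 48.0% and 46.9% with TMM. With that scaling 7 members were again called in each genotype, beside 64.9% and 64.8% of all genes, but Irf4 was no longer among them (log2 change -0.06 in Δ/DN and 0.03 in Δ/+) and Irf5 was called lower (-0.41 and -0.66).

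**Figure D1:**
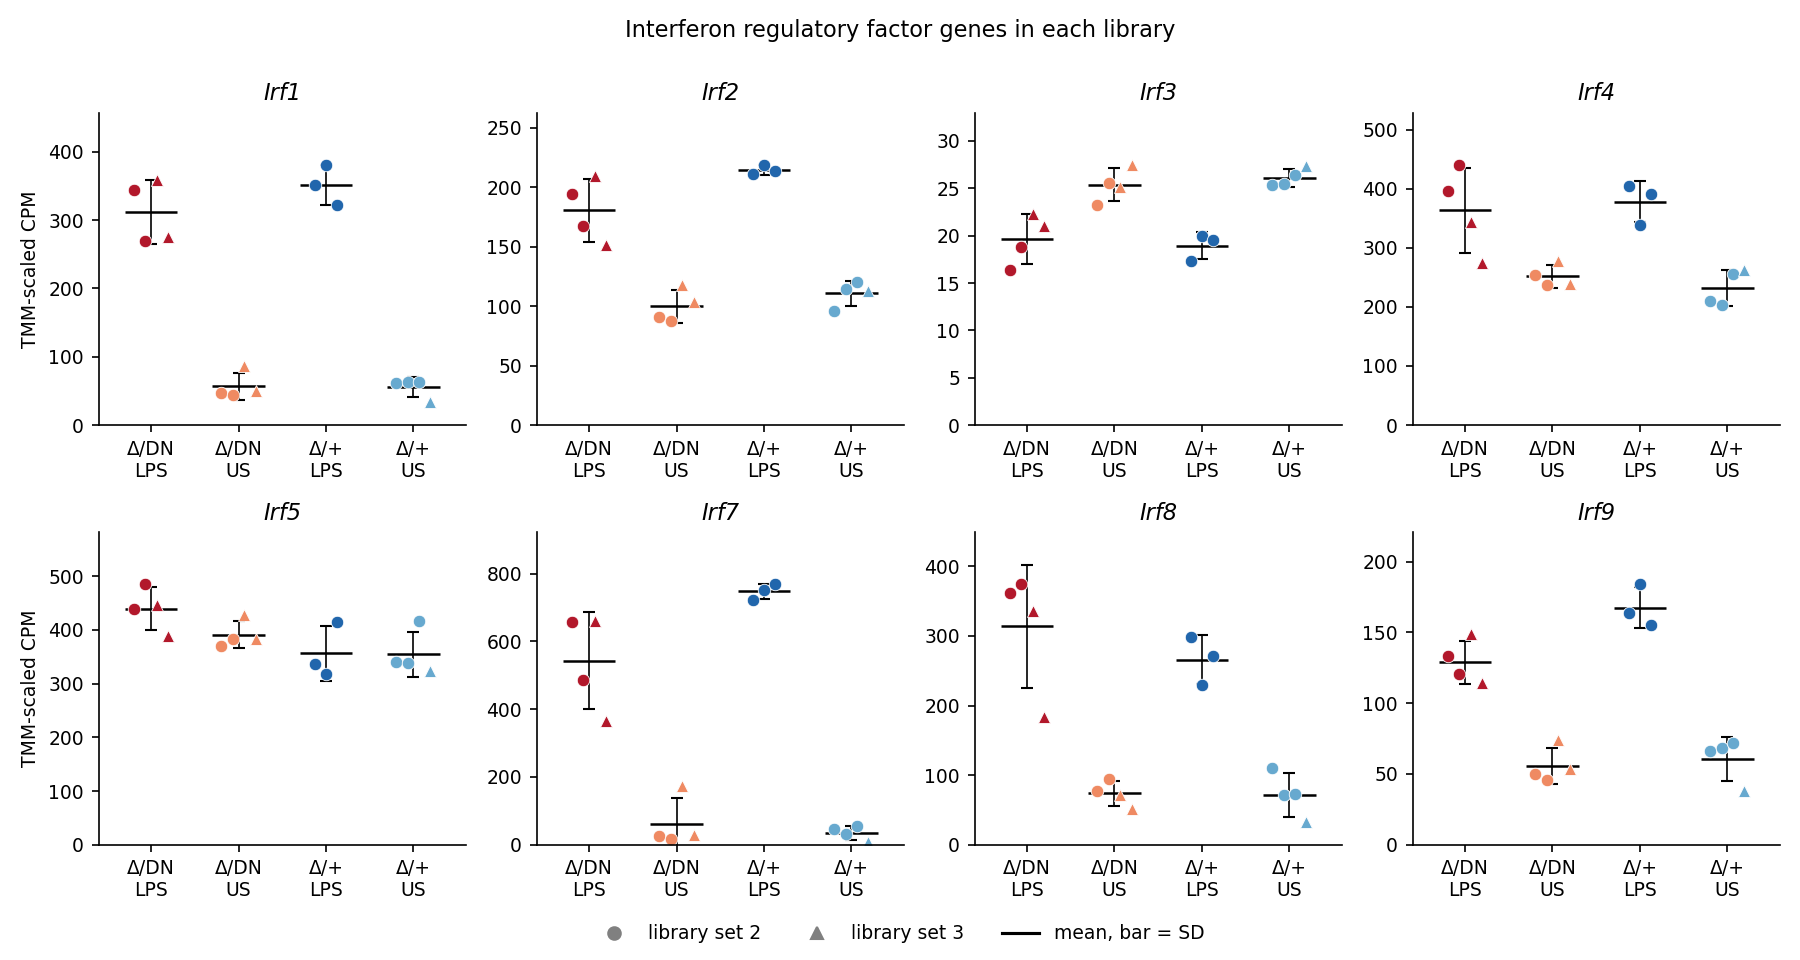
TMM-scaled CPM of each IRF gene (vertical axis, linear) in every library of the 4 groups; circles are library set 2, triangles set 3, lines are means and bars SD (cut at 0 for Irf7 in Δ/DN US). Irf7 lay between 366 and 768 CPM in the LPS libraries and between 9.26 and 174 CPM in the US libraries, whereas Irf5 overlapped between all 4 groups.

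Among the factors activated downstream of Toll-like receptors, Irf7, the interferon-inducible amplifier of type I interferon production, changed most. It had 658, 486, 659.5 and 366 CPM in Δ/DN LPS libraries, against 26.5, 15.7, 174 and 28.02 CPM in Δ/DN US libraries. All LPS values were above all US values, and the third US library stood far above the other US libraries. The log2 change in Δ/DN was 3.28 ± 0.80 (SE), a 9.73-fold rise (edgeR adjusted p = 0.00509). Without Δ/DN US 3 the rise was 23.9-fold (log2 4.58 ± 0.53), so that library sets much of the size. In Δ/+ cultures Irf7 had 724, 753 and 768 CPM with LPS, against 47.7, 31.2, 55.4 and 9.26 CPM without. Its rise there was 21.2-fold (log2 4.40 ± 0.83, adjusted p = 0.00092). Within single cultures the log2 change was 4.63, 4.95, 1.92 and 3.70 in Δ/DN cultures 1 to 4, and 3.92, 4.59 and 3.79 in Δ/+ cultures 1 to 3.

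Irf3, the constitutive partner of IRF7 that drives the first wave of interferon-beta, moved the other way. Its level was 16.4, 18.8, 22.3 and 21.03 CPM in Δ/DN LPS libraries, against 23.3, 25.6, 25.1 and 27.5 CPM in Δ/DN US libraries. In Δ/+ cultures it was 17.3, 19.99 and 19.5 CPM with LPS, against 25.3, 25.5, 26.4 and 27.4 CPM without. Every LPS library lay below every US library of its genotype, with a log2 change of -0.38 ± 0.08 in Δ/DN (adjusted p = 0.00166) and -0.42 ± 0.09 in Δ/+ (adjusted p = 0.00152). With TMM scaling the fall was smaller in size than any of the called rises. With library totals as the scaling it was larger, -0.96 ± 0.13 in Δ/DN and -1.07 ± 0.15 in Δ/+. That exceeded the rises of Irf2 (0.28 and 0.33) and Irf9 (0.64 and 0.80) on the same scaling. Per kb of the longest coding transcript Irf3 had the lowest mean level of the 8 genes in all 4 groups, except that Irf7 was lower in Δ/DN US without library 3.

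Irf5, the factor of inflammatory cytokine genes, had no difference with LPS that passed the test. It had 439.7, 485, 447 and 389 CPM in Δ/DN LPS libraries, against 369.9, 384, 428 and 384 CPM in Δ/DN US libraries. In Δ/+ cultures it had 337, 318 and 414 CPM with LPS, against 341, 338, 417 and 324 CPM without. The ranges overlapped in both genotypes. The log2 difference was 0.17 ± 0.11 in Δ/DN (95% interval -0.05 to 0.39, adjusted p = 0.242) and -0.01 ± 0.12 in Δ/+ (95% interval -0.25 to 0.23, adjusted p = 0.967). These intervals hold for TMM scaling only. With library totals as the scaling, Irf5 was called lower, by -0.41 ± 0.09 in Δ/DN and -0.66 ± 0.10 in Δ/+. It was also the member with the smallest spread over the 15 libraries, with a root mean square deviation of 0.18 on the log2 scale, against 2.28 for Irf7.

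Of the factors of the interferon response, Irf1, an activator of antigen-presentation and GTPase genes, rose most. Its level was 344, 269, 359 and 275 CPM in Δ/DN LPS libraries, against 46.9, 43.4, 86.1 and 49.7 CPM in Δ/DN US libraries. In Δ/+ it was 352, 381 and 323 CPM with LPS, against 61.4, 63.2, 62.8 and 33.8 CPM without. The groups were far apart in both genotypes, and Irf1 rose 5.53-fold in Δ/DN (log2 2.47 ± 0.24, adjusted p = 2.36e-06) and 6.38-fold in Δ/+ (log2 2.67 ± 0.26, adjusted p = 1.66e-06).

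Irf9, the DNA-binding subunit of ISGF3, had 133, 120.4, 148 and 114 CPM in Δ/DN LPS libraries, against 49.7, 45.7, 74.3 and 53.7 CPM in Δ/DN US libraries. Δ/+ cultures had 163, 184 and 155 CPM with LPS, against 65.9, 67.98, 71.6 and 37.9 CPM without. It rose 2.31-fold in Δ/DN (log2 1.21 ± 0.19, adjusted p = 0.000134) and 2.74-fold in Δ/+ (log2 1.46 ± 0.21, adjusted p = 4.42e-05). Irf2, which competes with IRF1 for its sites, had 194, 167, 209.7 and 151 CPM in Δ/DN LPS libraries, against 90.8, 87.2, 118 and 103 CPM in Δ/DN US libraries. In Δ/+ the values were 211, 219 and 213 CPM with LPS, against 95.8, 114, 120.1 and 113 CPM without. Irf2 thus rose less than Irf1 or Irf9, 1.82-fold in Δ/DN (log2 0.86 ± 0.11, adjusted p = 1.96e-05) and 1.98-fold in Δ/+ (log2 0.98 ± 0.12, adjusted p = 1.14e-05). The counting's use of strand is not given in the sources used here, and in the GENCODE M21 annotation Irf9 overlaps Rnf31 on the same strand, while Irf3, Irf5 and Irf7 overlap Bcl2l12, Tnpo3 and Phrf1 on the opposite strand, so reads of these neighbours may be shared.

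The lineage factors Irf8 and Irf4 both rose, by unequal amounts. Irf8 had 361, 374, 336 and 184 CPM in Δ/DN LPS libraries, against 77.4, 94.99, 70.8 and 51.8 CPM in Δ/DN US libraries. Δ/+ cultures showed 298, 229 and 272 CPM with LPS, against 111, 72.02, 72.8 and 33.2 CPM without. No LPS library overlapped the US libraries, and Irf8 rose 4.25-fold in Δ/DN (log2 2.09 ± 0.23, adjusted p = 5.6e-06) and 3.44-fold in Δ/+ (log2 1.78 ± 0.24, adjusted p = 3.35e-05). Irf4 had 396, 441, 344 and 274 CPM in Δ/DN LPS libraries, against 254, 237, 278 and 238 CPM in Δ/DN US libraries. In Δ/+ cultures Irf4 stood at 405, 338 and 391 CPM with LPS, against 211, 203, 256 and 262 CPM without. Its rise was 1.44-fold in Δ/DN (log2 0.53 ± 0.14, adjusted p = 0.00547), where the ranges of LPS and US libraries overlapped, and 1.60-fold in Δ/+ (log2 0.68 ± 0.15, adjusted p = 0.00164). With TMM scaling, library Δ/DN LPS 4 was the lowest of its group for Irf2, Irf4, Irf5, Irf7, Irf8 and Irf9. Its TMM factor was 0.940, against 0.775, 0.830 and 0.789 in Δ/DN LPS 1 to 3, and a higher factor lowers the scaled values. As reads over library totals it was lowest for Irf4, Irf7 and Irf8 but not for Irf2, Irf5 and Irf9. It is also the library with 929 CPM of neutrophil markers, whose part in these values was not tested. Without it all 7 calls in Δ/DN held.

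The ratio of Irf8 to Irf4 was higher in every LPS library than in any US library of its genotype. Per kb of the longest coding transcript it was 1.52, 1.42, 1.63 and 1.12 in Δ/DN LPS libraries, against 0.510, 0.672, 0.426 and 0.363 in Δ/DN US libraries. The Δ/+ ratios were 1.23, 1.13 and 1.16 with LPS, against 0.878, 0.595, 0.476 and 0.212 without. Which of the pair stood higher with LPS depended on the length used. Irf8 was above Irf4 in every LPS library by this length, but per kb of merged exons it was below Irf4 in all 7, with ratios of 0.467 to 0.679 in Δ/DN LPS and 0.470 to 0.511 in Δ/+ LPS libraries, against 0.151 to 0.279 in Δ/DN US and 0.0879 to 0.365 in Δ/+ US libraries.

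**Figure D2:**
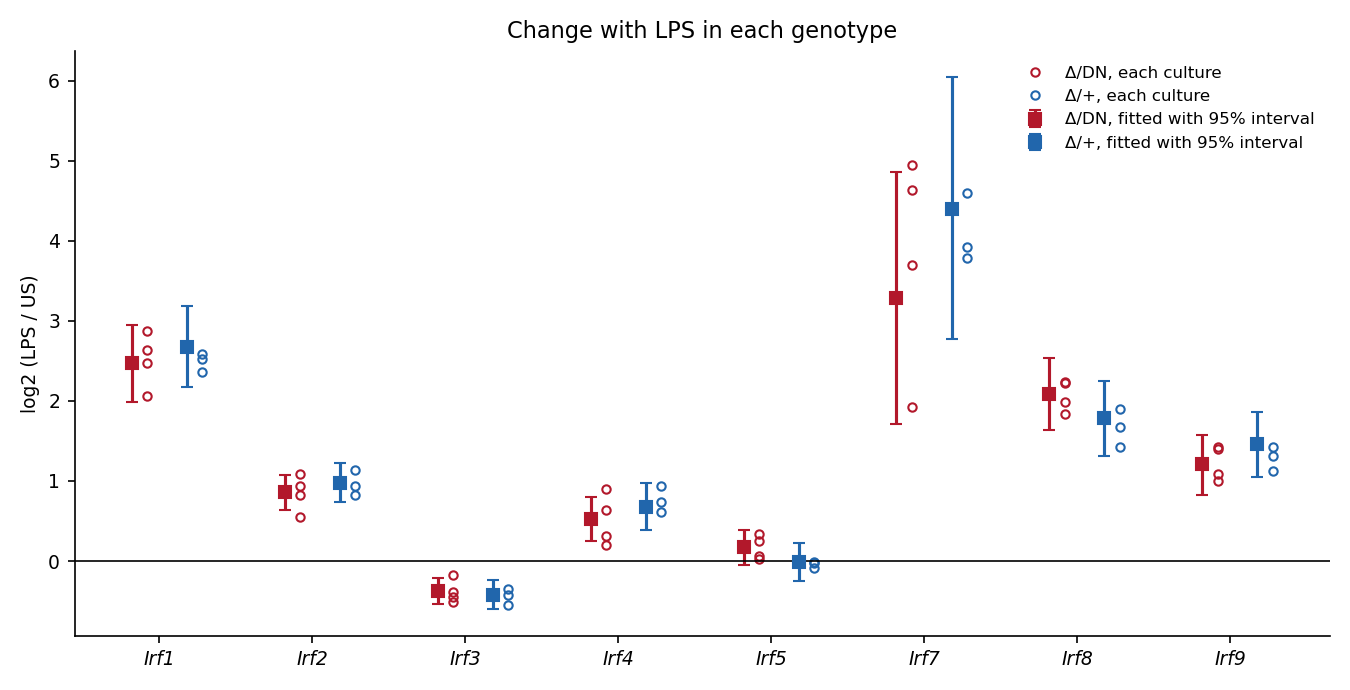
Log2 change with LPS of each IRF gene (LPS over US), in Δ/DN (red) and Δ/+ (blue); squares are fitted values with 95% intervals and open circles the change within each culture. Irf7 spans 1.92 to 4.95 over the Δ/DN cultures, Irf3 lies below 0 in all 7 cultures, and Irf5 lies near 0.

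The order of the members within a group was read from CPM per kb of the longest coding transcript. In Δ/DN LPS libraries Irf7 (242 ± 64.04), Irf5 (196 ± 17.7) and Irf1 (146 ± 21.7 CPM per kb, SD, n = 4) led, followed by Irf8, Irf4, Irf2, Irf9 and Irf3. Irf7 was above Irf5 in 3 of these 4 libraries and their ranges overlapped, as did those of Irf1 and Irf8, Irf8 and Irf4, and Irf4 and Irf2. In Δ/DN US libraries Irf5 led with 175 ± 11.2, above Irf4 with 52.8 ± 4.02 and Irf2 with 39.96 ± 5.55 CPM per kb, without overlap among these 3. Irf7, Irf1, Irf8 and Irf9 followed with overlapping ranges, and Irf3 was last. The place of Irf7 rested on Δ/DN US 3, without which it averaged 10.5 CPM per kb, below Irf3 with 12.5 CPM per kb. In Δ/+ LPS libraries Irf7 led with 334 ± 10.1 CPM per kb (n = 3), above Irf1 (165 ± 13.6) and Irf5 (159 ± 22.7), which overlapped. Irf8, Irf2 and Irf4 came next with overlapping ranges, then Irf9 and Irf3, each apart from its neighbours. In Δ/+ US libraries the order was Irf5 (158 ± 18.6), Irf4, Irf2, Irf1, Irf8, Irf9, Irf7 and Irf3, and only Irf5 and Irf4, and Irf2 and Irf1, were apart without overlap. The order depended on the length used. Per kb of merged exons, Irf2 averaged 13.5 in Δ/DN US libraries, below Irf7 and Irf1, and Irf4 averaged above Irf8 in both LPS groups. With the deposited gene lengths, Irf4 led and Irf2 was last in both US groups.

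As a share of the summed level per kb of the 8 genes, Irf7 took 26.7% in Δ/DN LPS and 6.35% in Δ/DN US libraries, and 34.03% in Δ/+ LPS and 4.38% in Δ/+ US libraries. Its share in the Δ/DN US libraries ran from 2.03% to 16.3%, and without Δ/DN US 3 the mean was 3.03%. Irf5 took 22.2% in Δ/DN LPS and 46.7% in Δ/DN US libraries, and 16.2% in Δ/+ LPS and 45.02% in Δ/+ US libraries. The lower share of Irf5 with LPS went with higher levels of 6 of the other genes, while its own level was not called. With merged exon length in place of the longest transcript, Irf5 led Irf7 in Δ/DN LPS libraries, with 28.0% and 26.0% of the sum, and Irf7 still led in Δ/+ LPS libraries with 33.6%.

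**Figure D3:**
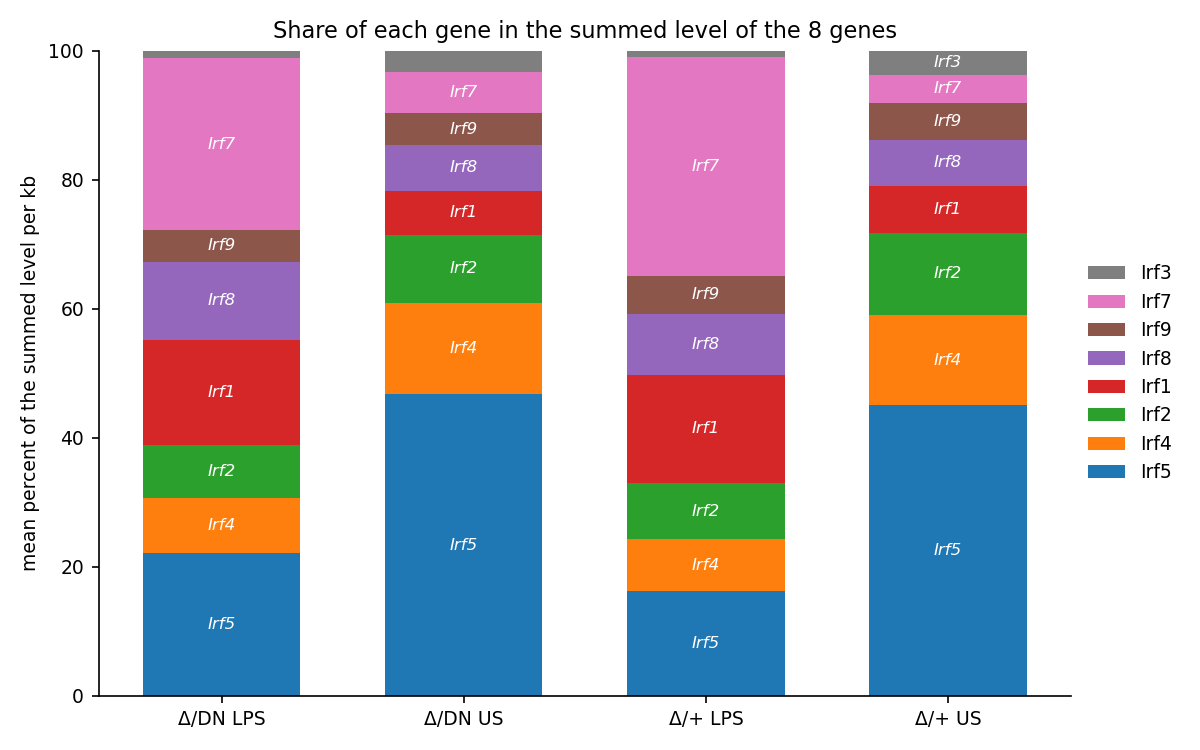
Mean share (percent, vertical axis) of each IRF gene in the summed CPM per kb of the 8 genes, by group. Irf7 makes up 26.7% in Δ/DN LPS and 34.0% in Δ/+ LPS libraries, and Irf5 makes up 46.7% in Δ/DN US and 45.0% in Δ/+ US libraries.

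Between genotypes no IRF gene was called with all 15 libraries, either with LPS or unstimulated, while 8.6% of all genes were called with LPS and 10.5% unstimulated. With LPS, 3 of 8 members had an unadjusted p under 0.05, beside 25.3% of all genes. Irf5 was higher in Δ/DN by 0.33 ± 0.13 on the log2 scale (adjusted p = 0.12, means 440.0 ± 39.6 CPM in Δ/DN LPS and 356 ± 50.9 CPM in Δ/+ LPS, SD, n = 4 and 3). Irf2 had a difference of -0.31 ± 0.13 (adjusted p = 0.151, 180.5 ± 26.2 CPM in Δ/DN LPS and 214 ± 4.10 CPM in Δ/+ LPS). Irf8 had a difference of 0.58 ± 0.26 (adjusted p = 0.187, 314 ± 87.96 CPM in Δ/DN LPS and 266 ± 34.8 CPM in Δ/+ LPS). For Irf8 the fitted difference is 1.49-fold, while the ratio of its mean CPM is 1.18. Over 14 alternative fits the Irf8 difference ran from 0.24 to 0.72 on the log2 scale, and 0 of them called it. With TMM scaling and without overlap between the libraries, Irf2, Irf7 and Irf9 were lower in all 4 Δ/DN LPS than in all 3 Δ/+ LPS libraries, beside 24.6% of all genes whose 2 groups did not overlap. As reads over library totals, only Irf7 stayed apart. Irf2 and Irf9 had 14939 and 10574 of 90298588 reads in Δ/DN LPS 3. In Δ/+ LPS 3 they had 16296 and 11865 of 104041282 reads, which are lower shares. The fitted differences of Irf7 (-0.62 ± 0.82, adjusted p = 0.69) and Irf9 (-0.36 ± 0.22, adjusted p = 0.336) did not pass. With library totals as the scaling, Irf5 was called higher in Δ/DN LPS (0.49 ± 0.11, adjusted p = 0.0178), beside 8.45% of all genes.

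Unstimulated, the fitted differences between Δ/DN and Δ/+ ran between -0.19 for Irf2 and 0.50 for Irf7, and 0 of 8 had an unadjusted p under 0.05, beside 26.2% of all genes. DESeq2 also called none, unstimulated or with LPS. No member separated the 2 groups, beside 12.5% of all genes that did. For Irf7 the 95% interval ran from -1.25 to 2.24 on the log2 scale. Its 4 Δ/DN US libraries (26.5, 15.7, 174 and 28.02 CPM) lay on both sides of the 4 Δ/+ US libraries (47.7, 31.2, 55.4 and 9.26 CPM). The highest US library for Irf1, Irf7 and Irf9 was Δ/DN US 3 and the lowest was Δ/+ US 4, and both are of library set 3.

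Within library set 2 alone, which leaves 2 Δ/DN and 3 Δ/+ cultures, these 3 genes were called lower in Δ/DN US than in Δ/+ US libraries, beside 6.01% of all genes. Irf9 differed by -0.54 ± 0.10 (adjusted p = 0.0127), Irf1 by -0.49 ± 0.11 (adjusted p = 0.0321) and Irf7 by -1.11 ± 0.27 (adjusted p = 0.0461). In set 2 with LPS, Irf9 was called lower in Δ/DN (-0.40 ± 0.10, adjusted p = 0.0289), beside 9.14% of all genes. Set 3 holds 1 Δ/+ library, so no difference between genotypes was fitted within it. Without both libraries of Δ/DN culture 3 no member was called in either state, and the unstimulated difference of Irf7 was -0.37 ± 0.45.

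**Figure D4:**
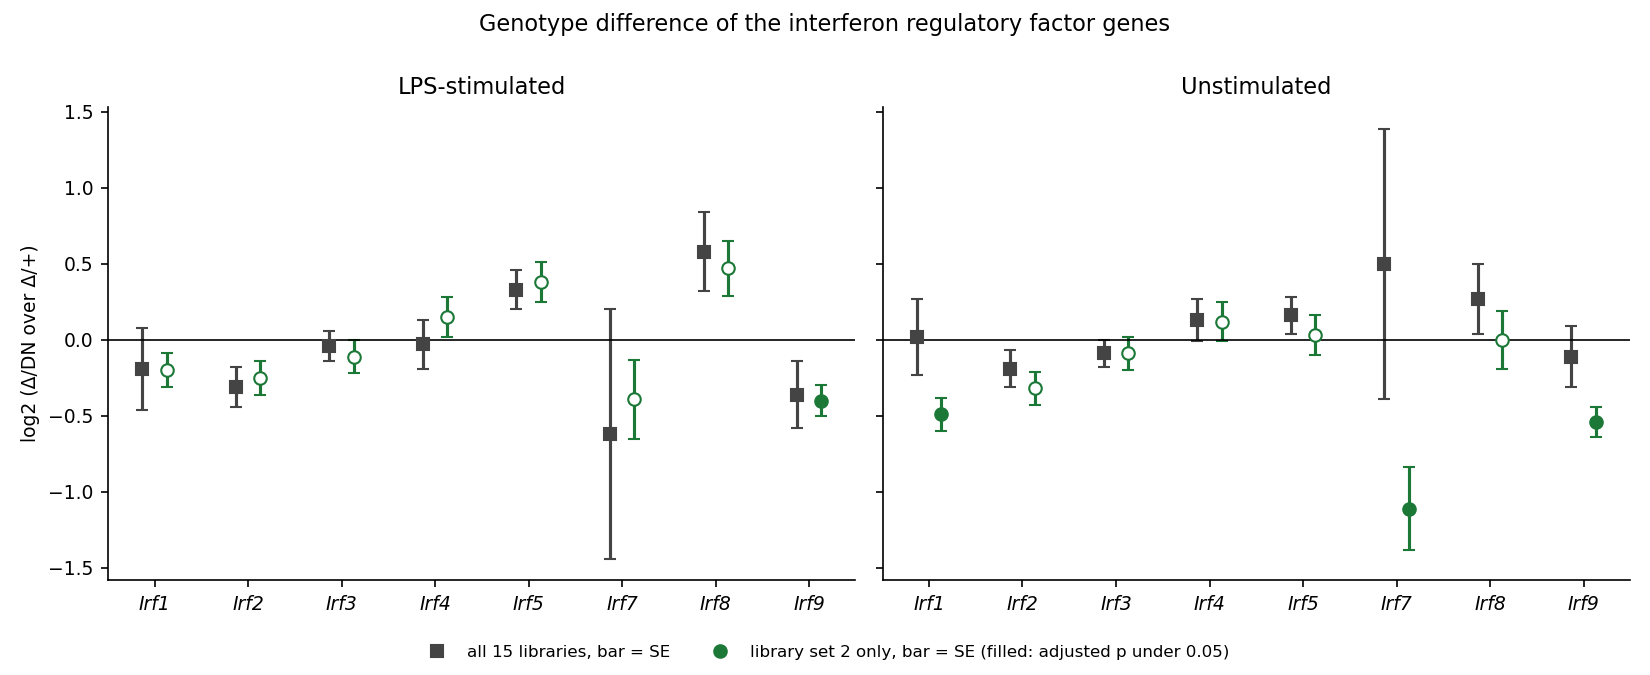
Log2 difference of each IRF gene, Δ/DN over Δ/+, in LPS-stimulated (left) and unstimulated (right) cultures; grey squares are all 15 libraries, green circles library set 2 only (filled where the adjusted p was under 0.05), bars are SE. Unstimulated Irf7 is at 0.50 over all libraries and at -1.11 in set 2.

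The size of the LPS response did not differ between genotypes for any member at the threshold (interaction test by edgeR, 0 of 8 called). An unadjusted p under 0.05 was found for 0 of the 8, beside 8.98% of all genes. DESeq2 also called none of the 8. Of all genes tested, edgeR called 1 (0.00479%), and 106 were called by DESeq2 and 106 with the culture as a replicate block, none of them a member. The widest difference was that of Irf7, -1.12 ± 1.07 on the log2 scale (Δ/DN response minus Δ/+ response, adjusted p = 0.825), with a 95% interval of -3.21 to 0.97. Its sign was not stable, since it was 0.23 without Δ/DN US 3, 0.0 without Δ/DN culture 3 and 0.72 within library set 2. For Irf8 the value was 0.31 ± 0.33 (adjusted p = 0.845). For Irf3 the interval ran from -0.20 to 0.29, and for Irf2 from -0.45 to 0.21.

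The pathways around the IRFs were described by 10 lists of genes. The values below use TMM scaling, and the direction of some lists depended on it. Each count with LPS stands beside 23.1% of all genes called higher and 25.1% lower in Δ/DN, and 22.4% and 25.3% in Δ/+. With library totals as the scaling, all 24 targets of ISGF3, IRF3 and IRF7 and all 7 cytokine targets of IRF5 still rose in both genotypes, and 16 of 18 IRF1 targets rose in Δ/DN and 17 in Δ/+. On that scaling the 22 sensors, adaptors and kinases divided into 11 higher and 8 lower in Δ/DN (median 0.26) and 10 higher and 10 lower in Δ/+ (median -0.02), the 10 IRF4-linked genes into 5 and 3 in Δ/DN (median 0.28) and 3 and 2 in Δ/+ (median -0.05), and the 10 IRF8-linked genes into 1 and 7 in Δ/DN and 1 and 5 in Δ/+. Between genotypes, 12 of 123 list genes tested were called with LPS (9.76%, against 8.6% of all genes) and 14 unstimulated (11.4%, against 10.5%). These shares are near those of all genes, and most of the calls rested on single libraries. Without Δ/+ LPS 2 or without Δ/DN LPS 2, 2 of the 12 were still called, and without Δ/+ LPS 1, 3 were. Only Tlr9 and Ticam2 stayed called with LPS whichever of the 7 libraries was left out. Without Δ/+ US 4, 1 of the 14 unstimulated calls remained, Cd24a, which was also the only one to hold without each of the 8 libraries in turn, and without Δ/+ US 2 or Δ/DN US 2, 6 remained. The interaction called 0 of the 123 list genes tested by edgeR or DESeq2, and 17 had an unadjusted p under 0.05 by edgeR, beside 8.98% of all genes.

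Genes upstream of the IRFs mostly rose with LPS relative to the bulk of genes. Under library totals only 11 of 22 were called higher in Δ/DN and 10 of 22 in Δ/+ cultures. Of 22 sensors, adaptors and kinases, 13 were called higher and 6 lower in Δ/DN, and the same numbers in Δ/+. The kinases that phosphorylate IRF3 and IRF7 were among them: Tbk1 had 207 ± 22.7 CPM in Δ/DN LPS and 74.6 ± 11.04 CPM in Δ/DN US libraries (log2 change 1.48 ± 0.11), and Ikbke had 372 ± 57.8 CPM in Δ/DN LPS and 102 ± 7.66 CPM in Δ/DN US libraries (log2 change 1.87 ± 0.12). Tank, their scaffold, rose by 2.06 ± 0.12 in Δ/DN and by 1.96 ± 0.13 in Δ/+. Between genotypes, Tlr9, the DNA sensor that signals to IRF7, was higher in Δ/DN both with LPS (1.38 ± 0.21, adjusted p = 0.00547) and unstimulated (1.10 ± 0.19, adjusted p = 0.00706). Tlr4, the LPS receptor, was lower in Δ/DN US libraries, with 217 ± 27.2 CPM against 333 ± 60.8 CPM in Δ/+ US libraries (log2 -0.66 ± 0.12, adjusted p = 0.00794). In all, 5 were called higher and 1 lower with LPS, and 2 higher and 2 lower unstimulated. Without Δ/DN culture 3 the unstimulated count was 9 of 22, and within library set 2 it was 0 higher and 4 lower, with Tlr9 no longer called, against 4 higher and 2 lower with LPS.

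Interferon transcripts themselves were rare at 18 h. Of 15 interferon genes 2 passed the filter on low counts. Ifnb1 had 3.51 ± 1.62 CPM in Δ/DN LPS and 0.0512 ± 0.088 CPM in Δ/DN US libraries, and 6.27 ± 1.95 CPM in Δ/+ LPS and 0.0868 ± 0.0786 CPM in Δ/+ US libraries (SD). It rose in both genotypes (fitted log2 6.23 ± 0.83 in Δ/DN and 6.51 ± 0.84 in Δ/+, a size that rests on very few US reads), and between genotypes with LPS it was not called (-1.04 ± 0.70, adjusted p = 0.387). Of the 9 genes of interferon receptors and their JAK kinases, 7 rose and 1 fell in each genotype. Jak2 rose to 1732 ± 207 CPM in Δ/DN LPS, against 561 ± 70.8 CPM in Δ/DN US libraries (log2 1.63 ± 0.14), and in Δ/DN the gene that fell was Ifngr1, a chain of the interferon-gamma receptor (log2 -1.29 ± 0.12). With LPS, Ifnar2, a chain of the type I interferon receptor, was lower in Δ/DN than in Δ/+ (-0.55 ± 0.11, adjusted p = 0.0154), Jak1 was lower (-0.44 ± 0.12, adjusted p = 0.0403) and Tyk2 was higher (0.45 ± 0.12, adjusted p = 0.0328). Within library set 2, 0 of the 9 genes were called higher and 1 lower in Δ/DN with LPS.

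Partners and regulators of the IRF proteins moved in both directions. Of 13 partner factors, 9 were called higher and 2 lower with LPS in Δ/DN, and 8 higher and 2 lower in Δ/+. Batf, which binds composite sites with IRF4 and IRF8, rose by 2.10 ± 0.17 in Δ/DN and by 3.02 ± 0.19 in Δ/+, and Stat3 by 1.70 ± 0.16 and 2.05 ± 0.17. Of 12 regulators, 7 were called higher and 3 lower in Δ/DN, and 8 higher and 2 lower in Δ/+. Both lists stand beside 23.1% of all genes called higher and 25.1% lower in Δ/DN, and 22.4% and 25.3% in Δ/+. Peli1, a ubiquitin ligase, rose by 3.38 ± 0.13 in Δ/DN and 3.69 ± 0.14 in Δ/+, and Irf2bpl, a relative of the IRF2 binding proteins, fell (-1.68 ± 0.16 and -2.15 ± 0.18). Between genotypes, 1 partner was called unstimulated, the coactivator gene Crebbp (-0.30 ± 0.08, adjusted p = 0.0329). With LPS the 1 called was Irf2bp2, a corepressor of IRF2, with 38.6 ± 22.9 CPM in Δ/DN LPS and 13.3 ± 2.24 CPM in Δ/+ LPS libraries (log2 1.39 ± 0.36, adjusted p = 0.0369).

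The genes known to be driven by these factors followed the same division into strong LPS changes and few genotype calls. All 24 targets of ISGF3, IRF3 and IRF7 rose with LPS in both genotypes, with median log2 changes of 3.70 in Δ/DN and 4.61 in Δ/+. Mx1, an antiviral GTPase, had 1426 ± 464 CPM in Δ/DN LPS and 141 ± 42.9 CPM in Δ/DN US libraries, and Ccl5 had 1228 ± 299 and 54.1 ± 15.1 CPM. Between genotypes 0 of the 24 were called with LPS or unstimulated over all libraries by edgeR or DESeq2, and 0 had an unadjusted p under 0.05 by edgeR. Of all genes, 25.3% had such a p with LPS and 26.2% unstimulated. In library set 2, 12 of the 24 were called lower in Δ/DN US libraries and 0 higher, with a median of -0.99 on the log2 scale against -0.03 over all genes, and with LPS 1 was called lower. The summed level of the 24 genes was 1166, 857.7, 4768 and 1147 CPM in Δ/DN US libraries 1 to 4, and 1889, 1469, 2147 and 474.9 CPM in Δ/+ US libraries 1 to 4. Thus Δ/DN US 3 and Δ/+ US 4, the extremes for Irf7, Irf1 and Irf9, were also the extremes for this list, and the part of these libraries' state in the genotype differences was not tested. With LPS the sums ran from 19010 to 34300 CPM in Δ/DN and from 39720 to 45960 CPM in Δ/+ libraries. They did not overlap, beside 24.6% of all genes whose 2 groups did not overlap with LPS. The sums were not tested and weigh the most abundant genes most. Rsad2 alone averaged 6859 CPM in Δ/DN LPS and 11180 CPM in Δ/+ LPS libraries.

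**Figure D5:**
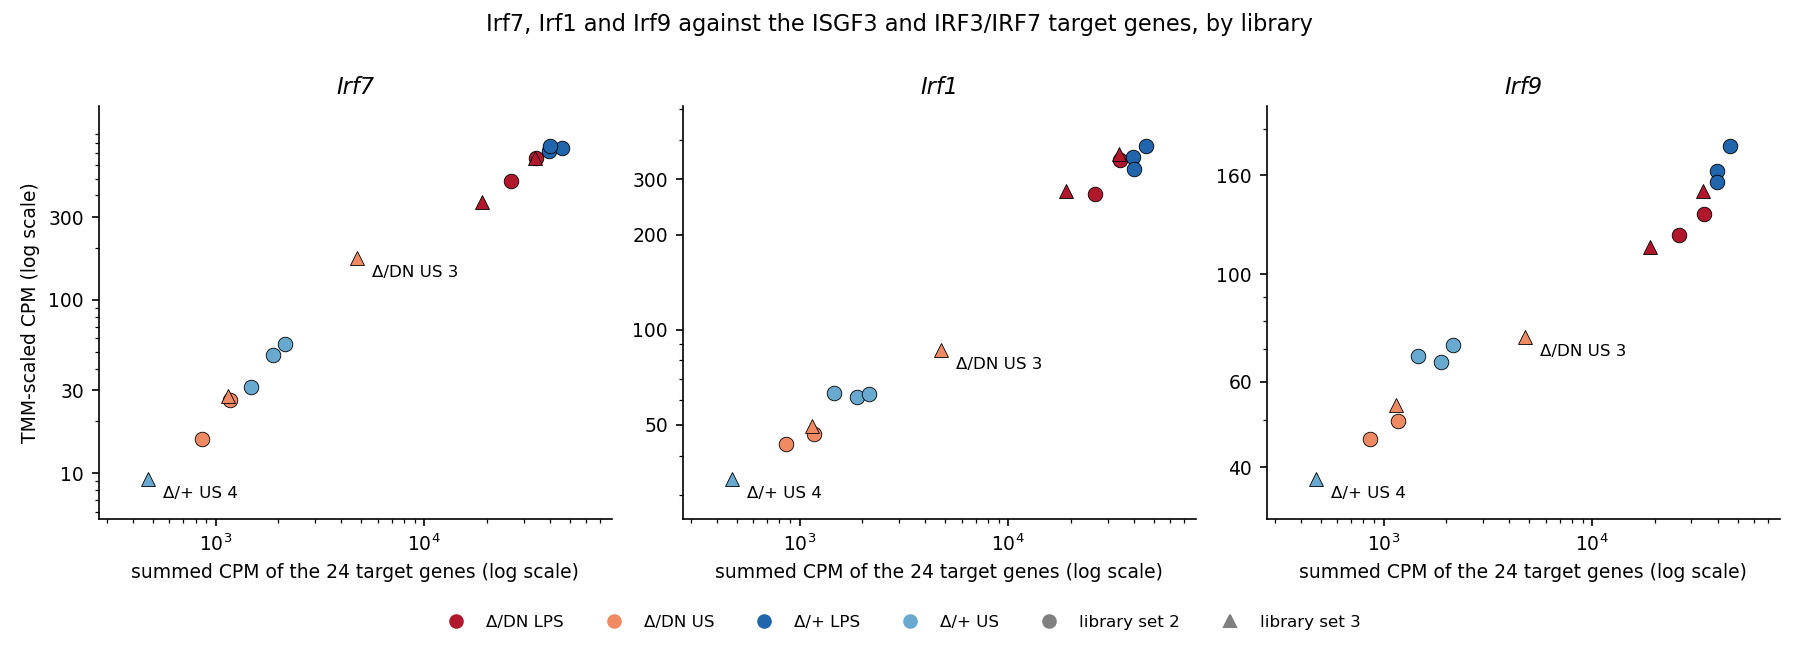
Level of Irf7, Irf1 and Irf9 (vertical axes, TMM-scaled CPM, log scale) against the summed CPM of the 24 target genes (horizontal axis, log scale), 1 point per library; circles are library set 2 and triangles set 3. Among US libraries Δ/DN US 3 (174 CPM of Irf7) is highest and Δ/+ US 4 (9.26 CPM) lowest in all 3 panels.

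Of 18 targets of IRF1, 17 rose with LPS in each genotype and none fell, with medians of 2.62 in Δ/DN and 3.40 in Δ/+. Il27 rose by 6.71 ± 0.45 in Δ/DN and 8.15 ± 0.50 in Δ/+, and Cd274, which encodes PD-L1, had 1357 ± 215 CPM in Δ/DN LPS and 280.0 ± 93.4 CPM in Δ/DN US libraries. Ciita, the master regulator of MHC class II genes, was the 1 target called between genotypes in each state. It had 187 ± 83.1 CPM in Δ/DN LPS and 78.1 ± 24.4 CPM in Δ/+ LPS libraries (log2 1.65 ± 0.33, adjusted p = 0.0157), and 153 ± 51.5 CPM in Δ/DN US and 72.2 ± 33.3 CPM in Δ/+ US libraries (log2 1.36 ± 0.29, adjusted p = 0.0162). Within library set 2, 1 IRF1 target was called higher and 4 lower in Δ/DN with LPS, and 0 unstimulated. All 7 cytokine targets of IRF5 rose in each genotype although Irf5 was not called. Il12b, the shared subunit of IL-12 and IL-23, had 4212 ± 1354 CPM in Δ/DN LPS and 5.25 ± 2.51 CPM in Δ/DN US libraries (log2 9.67 ± 0.38). Unstimulated, Il12b was the 1 gene of this list called, higher in Δ/DN (1.61 ± 0.29, adjusted p = 0.00834), with 5.25 ± 2.51 CPM in Δ/DN US and 2.13 ± 1.09 CPM in Δ/+ US libraries. Within library set 2 that call was lost, and 2 of the 7 were called lower in Δ/DN US libraries and 0 higher (median -1.19). The summed level of the 7 was 123.9, 104.9, 297 and 110.2 CPM in Δ/DN US libraries 1 to 4, against 227, 227, 259.8 and 223 CPM in Δ/+ US libraries, so 3 of the 4 Δ/DN libraries lay below all Δ/+ libraries.

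Genes linked to IRF4 and IRF8 in dendritic cells moved in both directions with LPS. Of 10 linked to IRF4, 5 rose and 2 fell in Δ/DN, and 5 rose and 0 fell in Δ/+. Ccl22 had 6788 ± 1412 CPM in Δ/DN LPS and 838 ± 137 CPM in Δ/DN US libraries (log2 2.98 ± 0.28), and Ccr7, which guides migration to lymph nodes, rose by 1.46 ± 0.22. Of 10 linked to IRF8 and the cDC1 subset, 2 rose and 4 fell in Δ/DN, and 2 rose and 1 fell in Δ/+, while Irf8 itself rose. Of all genes, 23.1% were called higher and 25.1% lower in Δ/DN, and 22.4% and 25.3% in Δ/+. With 10 genes, the IRF8-linked counts are not far from these shares. Batf3, a factor of cDC1 cells, fell in both (-0.74 ± 0.20 in Δ/DN and -0.95 ± 0.23 in Δ/+), and Id2 rose (1.06 ± 0.15 and 0.66 ± 0.16). Within library set 2 the count of IRF8-linked genes called with LPS in Δ/DN was 2. Between genotypes, 4 IRF8-linked genes were higher in Δ/DN US libraries: Cd24a (0.84 ± 0.15), Xcr1 (2.64 ± 0.61), Itgae (1.77 ± 0.44) and Wdfy4 (0.54 ± 0.15). Xcr1, a chemokine receptor that defines cDC1 cells, was at only 0.167 ± 0.148 CPM in Δ/DN US and 0.0314 ± 0.0214 CPM in Δ/+ US libraries, so this difference rests on few reads. Of the IRF4-linked genes, 3 were higher in Δ/DN US libraries (Kmo, Ciita and Ccl17) and 2 with LPS (Ciita and Pdcd1lg2). Within library set 2 the unstimulated calls were 1 higher and 1 lower in Δ/DN for each of the IRF8-linked and IRF4-linked lists. With LPS in set 2, 1 IRF8-linked and 2 IRF4-linked genes were called higher and 0 lower. Beside the counts over all libraries, 4 of 10 macrophage markers were also called higher in Δ/DN US libraries, and the part of cell composition was not tested.

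The genes whose pattern over the 15 libraries was most like that of each member were found among 13791 protein-coding genes by the root mean square (RMS) difference of centred log2 CPM, as a description. Irf7 was nearest to Ifi47 (0.21) and Gbp6 (0.22), both interferon-inducible GTPase genes, against its own RMS deviation of 2.28. Irf1 was nearest to Zup1 (0.11) and Etnk1 (0.15), Irf9 to Rnf34 (0.13) and Cgas (0.17), and Irf2 to Xpo6 (0.08) and Efr3a (0.09). Irf8 was nearest to Zmynd15 (0.20) and Mmp25 (0.20), and Irf4 to Ints4 (0.12) and Akt2 (0.13). Irf3 was nearest to Tial1 (0.07) and Rabl6 (0.08), and Irf5 to Gpatch2l (0.10). Among the members themselves the closest pair was Irf2 and Irf4 (0.25), followed by Irf4 and Irf5 (0.31). All 15 points share the LPS and US grouping, so a low distance says little beyond a like response to LPS.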

How the data were processed

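The 15 libraries were rRNA-depleted RNA-seq libraries, and the deposited values are whole-number read counts per gene. Per the submitters' processing notes, the authors used HISAT2 2.2.1, featureCounts, Trimmomatic 0.33, FastQC, bedtools and edgeR, and build mm39 (GRCm39); the role of each tool and the use of strand are not given in the sources used here. Counts of 2 were commoner than counts of 1 or 3 (25694 against 23687 and 9434 values), a pattern that would arise if each mate were counted, which was not tested. The members, lists and tests were chosen with earlier results of these data known.

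Counts were fitted in R 4.3.3 with edgeR 4.0.16 (TMM factors, filterByExpr with a minimum count of 10, glmQLFit and glmQLFTest, two-sided, Benjamini-Hochberg adjustment over 20865 genes), with group and library set as terms and all 15 libraries. The fit treats the LPS and US libraries of a culture as independent. The pairing of libraries comes from the culture in their names; the residuals of the paired libraries correlated at 0.064 to 0.428 over the 7 cultures. The alternatives, some of which use DESeq2 1.42.0 and limma 3.58.1, were no library set term, other size factors, no filter, DESeq2, library set 2 alone, Δ/DN culture 3 left out, the culture as a replicate block, and each library left out in turn. Scaling by library totals, and the choice of length, were added after the data were seen. The script was tested on simulated counts.

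Levels are TMM-scaled CPM. Levels of different genes were compared per kb of the longest coding transcript of GENCODE M21 (GRCm38), because the deposited gene lengths exceeded merged exon length for most members, up to 16.05 times for Irf5. Names and lengths were matched by symbol, for 96.8% of genes, and no coordinates of the 2 builds were mixed. Named list genes were those called with the smallest p, at most 4 per list and comparison, and the 2 genes most like each member were taken by RMS difference. Some items that met these rules are not reported here.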

Additional observations from a re-analysis of the deposited data

Results flagged for a closer look

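In 24 groups of 4 libraries, each of the 8 genes in Δ/DN LPS, Δ/DN US and Δ/+ US, the highest or lowest library was compared with its neighbour, and 4 values stood apart by Dixon's criterion, which chance meets in about 1 in 20 groups. They fell in a single library of each genotype. Irf7 in Δ/DN US 3 was 174.2 CPM, far above the 15.7 to 28.0 CPM of the other Δ/DN US libraries, and Irf1 in the same library was 86.09 CPM. In Δ/+ US 4, Irf1 was 33.76 CPM and Irf9 was 37.85 CPM, both below the other Δ/+ US libraries. These libraries also held the highest and the lowest summed level of the 24 targets of ISGF3, IRF3 and IRF7 among US libraries, 4768 and 474.9 CPM, and Δ/DN US 3 had the highest share of signal recognition particle RNA (10.4% of reads). Both belong to library set 3, and the part of these values in the outlying IRF levels was not tested.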

How the results depend on the processing

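Of 688 refits of the 40 member results, 646 kept their direction and side of the threshold and 37 changed sign. With the culture as a replicate block, 7 of 8 members were called with LPS in each genotype and 0 in the interaction, as in the unblocked fit, and the interaction of Irf1 was 0.02. The number of members called between genotypes was 3 unstimulated and 1 with LPS within library set 2, and 1 with LPS under total count scaling, against 0 in each with all libraries. Unstimulated, Irf1 differed by -0.20 without Δ/DN culture 3, by -0.49 in set 2 and by -0.34 to 0.19 with single libraries left out; Irf7 differed by -0.37, -1.11 and -0.47 to 1.24 in the same refits, and Irf9 by -0.44 to 0.03 with single libraries left out. With LPS, Irf3 differed between genotypes by 0.05 with no library set term, 0.11 under total count scaling and -0.10 to 0.04 with single libraries left out, and Irf4 by 0.15 in set 2, 0.11 under total count scaling and -0.16 to 0.05. The interaction in set 2 was 0.29 for Irf1, 0.08 for Irf2, -0.02 for Irf3, 0.03 for Irf4, 0.72 for Irf7 and 0.14 for Irf9. Without culture 3 it was 0.04 for Irf1, -0.01 for Irf3 and 0.0 for Irf7. With single libraries left out it ran over -0.33 to 0.13 for Irf1, -0.02 to 0.11 for Irf3 and -1.63 to 0.23 for Irf7. The LPS change of Irf5 in Δ/+ was 0.04 with DESeq2, 0.04 with RLE size factors, 0.01 with no library set term and -0.13 to 0.10 with single libraries left out. Under total count scaling the LPS change in Δ/DN was -0.06 for Irf4, -0.41 for Irf5 and -0.07 for Itgax, and in Δ/+ it was -0.0 for H2-Aa. Beyond the scaling itself, the causes of these shifts were not tested.

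Over all genes, the count called unstimulated between genotypes was 2184 in all 15 libraries, 3324 with DESeq2, 3705 without culture 3, 1270 with no library set term, 1271 in set 2, 1383 under total count scaling and 174 to 3403 with single libraries left out. With LPS it was 1795, 2877 with DESeq2, 2878 without culture 3 and 90 to 2233 with single libraries left out. The interaction called 1 gene, 106 with DESeq2, 106 with the replicate block, 2 with the block as an estimated correlation, 44 without culture 3, 34 with no filter, 4 in set 2, 0 under total count scaling and 0 to 15 with single libraries left out. Of 96 recomputed shares of the summed level, 47 moved by more than the spread between libraries. Depth limits the interferon genes, of which 13 of 15 were too low to test.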
